A study of Mus musculus with 4 samples.

Results

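The gamma crystallins are small globular proteins that fill the fiber cells of the lens. The 8 genes of the family, *Cryga*, *Crygb*, *Crygc*, *Crygd*, *Cryge*, *Crygf*, *Crygs* and *Crygn*, were chosen by gene symbol, without regard to their values, and all 8 were found among the 14924 genes of the expression table. They were compared in whole lenses of 1-month-old S100A4-/- mice, a line that lacks the gene in the whole animal and is kept on a C57BL/6J background, and of WT littermates. Each group had 2 mRNA libraries, and each library was made from 6 to 12 pooled lenses. No treatment is named for either group, and the sex of the animals in a pool is not given in the sources used here. With 2 pools per group the p-values speak to these pools only. The main test (limma) takes the variance of a gene partly from other genes of similar expression. The libraries held 81602367 and 74108017 reads on genes in S100A4-/- lenses and 70253985 and 68038158 in WT. The deposited value of a gene is its number of reads scaled by the size factor of its library, and 1 read was worth 0.856 and 1.01 in S100A4-/- and 1.04 and 1.09 in WT. The deleted gene checked the labels. *S100a4*, which encodes a calcium-binding protein, had values of 14.6 and 18.2 in S100A4-/- lenses and of 14420 and 14385 in WT lenses.

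Crystallins are the main soluble proteins of the lens, and their dense, ordered packing gives the tissue its transparency and its refractive power. The alpha crystallins are small heat shock proteins that act as chaperones, whereas the beta and gamma crystallins form a superfamily of structural proteins built from paired domains of Greek key motifs. Gamma crystallins remain monomers and are enriched in the fiber cells, which lose their nuclei and organelles, so that these proteins are not replaced later in life. Mutations in several gamma crystallin genes cause cataract in mice and in people. Transcription of the family in fiber cells is known to depend on factors such as Maf, Sox1 and Prox1.

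In the mouse genome (GRCm38), 5 of the genes lie head to tail on the minus strand of chromosome 1, within 54.8 kb between positions 65048554 and 65103373. Their order is *Cryge* (65048554 to 65051149), *Crygd* (65061872 to 65063452), *Crygc* (65071525 to 65073689), *Crygb* (65080219 to 65082288) and *Cryga* (65100389 to 65103373). *Crygf* lies 823.1 kb beyond *Cryga*, on the plus strand of the same chromosome (65926520 to 65928307). *Crygs* lies on chromosome 16 (22805203 to 22811577, minus strand) and *Crygn*, a more distant relative that is thought to link the beta and gamma branches, on chromosome 5 (24751003 to 24758008, minus strand). The principal transcript has 3 exons in every member but *Crygn*, which has 4. The second exon, which encodes the first of the paired domains, is 243 bases long in *Cryga*, *Crygb*, *Crygc*, *Crygd*, *Cryge*, *Crygf* and *Crygs* and 249 bases in *Crygn*. The annotation also holds a longer transcript of another gene, *Gm28845*, that overlaps exons of *Cryga* on the same strand and has no row in the table. Whether the older annotation used for counting (GRCm38v73) held it is not known, and reads of shared exons would then not have been assigned to *Cryga*.

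The coding sequences of the 6 genes on chromosome 1 were 79.2% to 98.1% identical to one another, and the closest pair was *Cryge* and *Crygf*. *Crygd* was 91.6% identical to *Cryge* and 90.7% to *Crygf*. *Crygs* was 58.2% to 60.0% identical to the 6 genes, and *Crygn* 55.1% to 59.0% to all other members. The sequences shown next are the longest coding stretch that *Cryge* and *Crygf* share and the 50-base coding stretch in which they differ most. They are shown because reads of 50 bases were counted only where they came from a single genomic locus. The shared stretch is 134 bases long and lies in exon 3, at chr1:65048712-65048845 on the minus strand in *Cryge* and at chr1:65928022-65928155 on the plus strand in *Crygf*. No full-length read from within it tells the 2 genes apart. The stretches that differ most lie at chr1:65048681-65048730 in *Cryge* and chr1:65928137-65928186 in *Crygf*. Capitals mark the 4 bases that differ, and sequences are written 5′ to 3′ on the coding strand, from GENCODE M21 transcripts.
Cryge and Crygf, shared stretch: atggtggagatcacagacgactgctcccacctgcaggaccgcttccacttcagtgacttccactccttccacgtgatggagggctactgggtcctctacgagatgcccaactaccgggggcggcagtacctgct
Cryge, differing stretch: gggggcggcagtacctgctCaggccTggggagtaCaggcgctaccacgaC
Crygf, differing stretch: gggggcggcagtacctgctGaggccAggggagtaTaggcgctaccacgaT

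For each principal transcript, the start positions of 50-base reads whose sequence was found in no transcript of another gene at another locus were counted. *Cryge* had the lowest share of such positions, 250 of 582 or 43.0%. *Crygf* had 376 of 578 (65.1%), *Crygd* 372 of 564 (66.0%), *Crygb* 413 of 585 (70.6%) and *Crygc* 558 of 734 (76.0%). *Cryga* stood apart from the rest of the chromosome 1 genes with 543 of 576 (94.3%), and *Crygs* and *Crygn* shared no 50-base sequence with any other gene. *Cryge* shared 202 read starts with *Crygf* and 193 with *Crygd*, while *Crygb* and *Crygc* shared 172 with each other. The deposited values of the 6 genes on chromosome 1 therefore omit reads that belong to more than one member, in both groups, and *Cryga* has the smallest share of such read starts among them. Introns and unannotated copies were not searched.

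**Figure D1:**
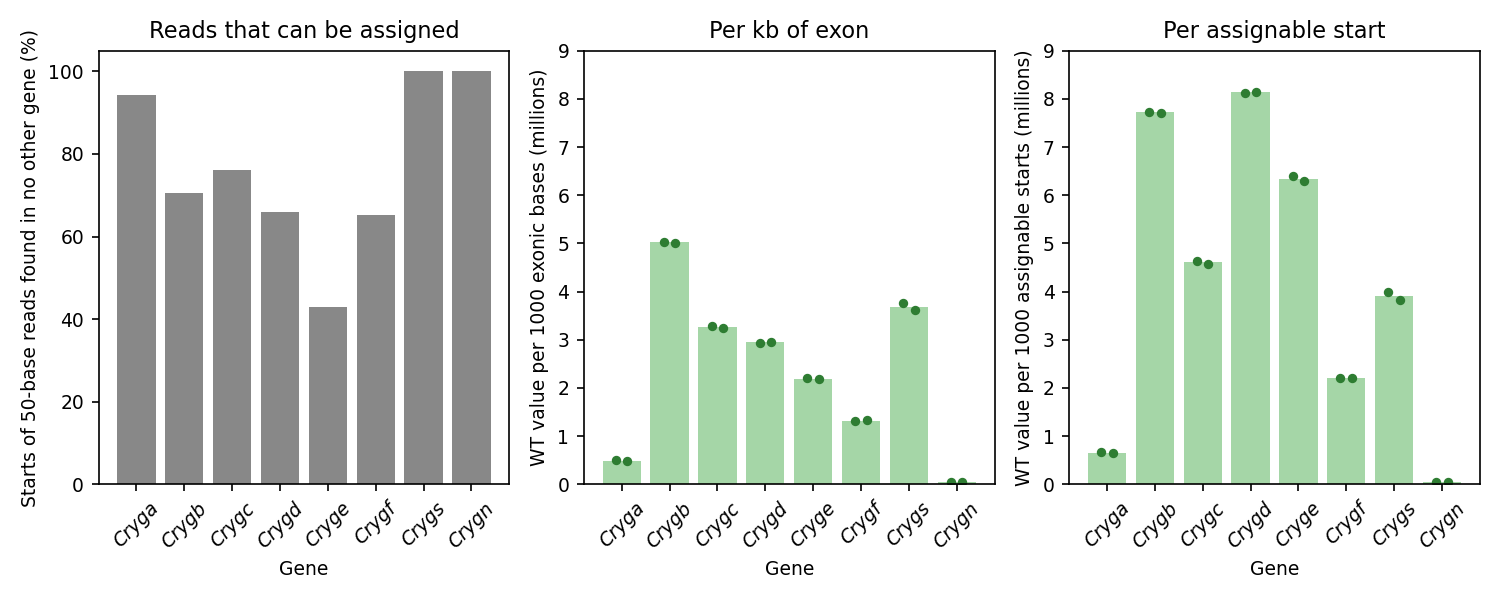
Left, the share of 50-base read starts on the principal transcript that were found in no other gene (%), for the 8 gamma crystallins. Middle and right, the WT value (bars, means of 2 libraries; points, libraries) per 1000 exonic bases and per 1000 assignable read starts. *Cryge*, with 43.0% assignable starts, is the fifth by exonic length and the third by assignable starts.

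The gene starts were also compared, because the members are expressed together in fiber cells. The 80 bases before each start are given from RefSeq promoters (GRCm38.p6), 5′ to 3′ on the strand of the gene, and all 8 members had an entry. Capitals mark TATATA or TATAAA.
Cryga (chr1:65103364-65103443, minus): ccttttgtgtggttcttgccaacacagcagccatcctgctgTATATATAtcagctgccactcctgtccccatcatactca
Crygb (chr1:65082291-65082370, minus): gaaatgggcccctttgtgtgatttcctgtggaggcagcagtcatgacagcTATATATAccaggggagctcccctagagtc
Crygc (chr1:65073533-65073612, minus): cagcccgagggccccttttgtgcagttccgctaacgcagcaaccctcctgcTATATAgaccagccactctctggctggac
Crygd (chr1:65063441-65063520, minus): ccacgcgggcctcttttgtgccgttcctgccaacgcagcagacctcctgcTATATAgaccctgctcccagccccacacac
Cryge (chr1:65051164-65051243, minus): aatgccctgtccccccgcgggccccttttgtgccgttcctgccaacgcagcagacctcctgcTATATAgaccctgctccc
Crygf (chr1:65926442-65926521, plus): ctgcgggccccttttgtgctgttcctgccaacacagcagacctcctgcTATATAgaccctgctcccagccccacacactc
Crygs (chr16:22811411-22811490, minus): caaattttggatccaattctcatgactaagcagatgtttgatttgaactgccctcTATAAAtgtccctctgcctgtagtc
Crygn (chr5:24757849-24757928, minus): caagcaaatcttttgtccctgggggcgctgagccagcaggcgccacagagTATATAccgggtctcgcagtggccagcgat

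The letters TATATA, which are their own reverse complement, stood in these 80 bases in 7 of the 8 members, and in 1.9% of 32851 promoters. TATATA was chosen after these sequences were seen, and the promoters of near copies such as *Crygd*, *Cryge* and *Crygf* are not independent of one another. In *Cryga* and *Crygb* a pair of overlapping matches was found. *Crygs* alone had TATAAA (either strand), which 4.8% of promoters hold in this window. The first match began 18 bases (*Cryge*) to 39 bases (*Cryga*) before the RefSeq start. The annotations differ on some starts. In *Crygc*, *Crygs* and *Crygn* the 80 bases lie wholly within the GENCODE gene positions given above. The first GENCODE exons of these genes, of 193, 243 and 186 bases, are longer than those of the other members. In the whole promoter, from 250 bases before to 50 bases after the start, TGCTGA, the core of the Maf recognition element, was found on either strand in 4 members (*Cryga*, *Crygc*, *Crygn* and *Crygs*) and in 19.5% of all promoters. ACAAT, the core of SOX sites, was found in *Crygd*, *Cryge*, *Crygf* and *Crygs* and in 31.0% of all promoters. In the 80 bases shown, 0 of the 8 members held TGCTGA and 0 held ACAAT, beside 5.5% and 9.8% of all promoters. These are matches of letters, and binding was not measured.

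Gamma crystallin transcripts were among the most abundant of the lens. Without regard to length, *Crygs* ranked sixth among all genes by the mean of the WT lenses, with values that overlapped those of *Crygb*, and was followed by *Crygb*, *Crygd* and *Crygc*, and *Crygn*, at rank 66, was the least abundant member. *Crygs* had values of 3288869 and 3168601 in WT lenses, against 36417 and 35756 for *Crygn*. Levels of different genes were compared per length. With the union of annotated exons as the length, *Crygb* reached a value per kb of 5027928 ± 12600 (SD, n = 2 libraries) in WT, second only to that of the alpha crystallin gene *Cryaa* (6357490) among 14782 genes with a length. The next were *Crygs* at 3689983 ± 97191 (SD, n = 2), *Crygc* at 3269224 ± 33827 (SD, n = 2) and *Crygd* at 2945995 ± 5947 (SD, n = 2). *Cryge* had 2194777 ± 22147 per kb (SD, n = 2), *Crygf* 1323447 ± 7081 (SD, n = 2), *Cryga* 490919 ± 4459 (SD, n = 2) and *Crygn* 44996 ± 583 (SD, n = 2). The order was the same in S100A4-/- lenses, and no neighbours in it overlapped within either group.

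This order depended on the length used. The exons of *Crygd* include a retained intron, which makes its union 1028 bases against 613 for the principal transcript, and on principal transcripts *Crygd* moved to second place, at 4940430 ± 9973 per kb (SD, n = 2) in WT lenses. There its S100A4-/- values overlapped with those of *Crygb*. Per 1000 assignable read starts, the order in both groups was *Crygd*, *Crygb*, *Cryge*, *Crygc*, *Crygs*, *Crygf*, *Cryga* and *Crygn*. On this scale *Crygd* was at 8141084 ± 16435 (SD, n = 2), *Crygb* at 7718417 ± 19342 (SD, n = 2) and *Cryge* at 6347294 ± 64050 (SD, n = 2) in WT lenses. *Crygf*, the near copy of *Cryge*, was at 2206918 ± 11809 (SD, n = 2) and kept the sixth place on both scales. *Cryga* and *Crygn* were the lowest by every length tried. The lengths of *Crygc*, *Crygs* and *Crygn* include bases that RefSeq places before the start, as given above. Their levels per length therefore depend on the start used, and lengths from RefSeq were not tried.

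The groups were compared to learn which lens transcripts change when S100A4 is missing. Of the 8 gamma crystallins 0 passed the threshold, which was set at 0.05 for p-values of limma after Benjamini-Hochberg adjustment, with or without a 2-fold change. Only *Cryga* had an unadjusted p under 0.05. By the same fit 3.72% of the 14780 genes tested passed with a 2-fold change (3.65% higher and 0.0744% lower in S100A4-/- lenses). Without the fold threshold 6.96% passed (5.62% higher and 1.33% lower), and 17.7% had an unadjusted p under 0.05. DESeq2 on recovered reads also called none of the 8 (4.47% of all genes), whereas edgeR called 1, *Crygs* (7.04% of all genes). After quantile normalization limma also called *Crygs* (5.22% of all genes), which is not read as a second pass, since its rank was the same in both S100A4-/- libraries. The median log2 fold change of the members was −0.02, beside −0.005 for all genes tested. The 95% intervals of the 8 members lay between −0.23 and 0.20 on the log2 scale, which is between 0.85-fold and 1.15-fold. Their width comes partly from the variance of other genes and is not the spread of the 2 pools alone. Without limma's variance trend the adjusted p was 0.646 for *Cryga* and 0.6 for *Crygs*. These are bulk lenses, and fewer cells of a type cannot be told apart from less RNA per cell.

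**Figure D2:**
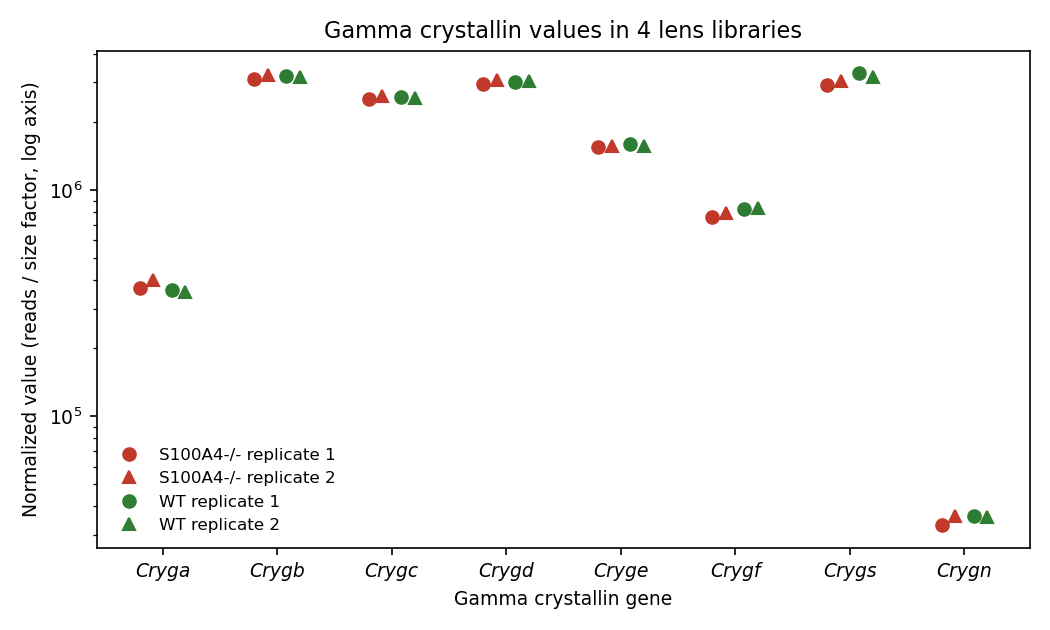
Normalized values (reads divided by the size factor, log axis) of the 8 gamma crystallins in each S100A4-/- (red) and WT (green) library. The points of a gene lie close together, while *Crygn* (33014 to 36417) lies far below the other genes. *Crygs* (2931352 to 3288869) and *Crygb* (3109309 to 3242891) overlap near the top.

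Of the chromosome 1 cluster, the 3 genes with the highest values not divided by length were nearly level between the groups. *Crygb*, *Crygc* and *Crygd*, all structural proteins of the fiber cytoplasm, had overlapping groups. *Crygb* had values of 3109309 and 3242891 in S100A4-/- lenses and of 3193355 and 3182058 in WT lenses. Both WT values lay between the S100A4-/- values, and the log2 fold change was −0.0056 (standard error 0.06, 95% interval −0.12 to 0.11, limma adjusted p = 0.977). *Crygc* had 2520118 and 2604305 against 2588411 and 2550809, with a log2 fold change of −0.0043 (95% interval −0.12 to 0.11, limma adjusted p = 0.981). *Crygd* had 2946442 and 3068991 against 3024160 and 3032806, with a log2 fold change of −0.01 (95% interval −0.13 to 0.11, limma adjusted p = 0.953). In each of the 3 genes the lowest and the highest value of all libraries were those of the S100A4-/- libraries. The sign of these 3 changes reversed when libraries were scaled to equal totals, with log2 fold changes of 0.024, 0.025 and 0.019.

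The near-identical pair *Cryge* and *Crygf* had lower values in both S100A4-/- libraries than in both WT libraries. *Cryge* had 1556882 and 1570487 in S100A4-/- lenses and 1598146 and 1575501 in WT lenses, and its log2 fold change was −0.02 (standard error 0.05, 95% interval −0.13 to 0.08, limma adjusted p = 0.89). Its groups were separated by less than the distance between the WT libraries. With libraries scaled to equal totals the sign for *Cryge* reversed (log2 fold change 0.008). *Crygf* had 763832 and 796249 against 826662 and 832941, and its log2 fold change was −0.09 (standard error 0.05, 95% interval −0.19 to 0.01, limma adjusted p = 0.335). Neither passed. The log2 ratio of *Crygf* to *Cryge*, which does not depend on the scaling of the libraries, was −1.027 and −0.980 in S100A4-/- lenses and −0.951 and −0.920 in WT lenses. The groups did not overlap, and the difference was −0.068 (exact permutation test, two-sided, p = 0.333, the smallest that 2 libraries against 2 allow). This ratio is drawn from the values already given and is not separate support.

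*Cryga*, the least abundant of the chromosome 1 genes, was the only member with higher values in both S100A4-/- libraries. Its values were 370765 and 401927 in S100A4-/- lenses and 360673 and 356069 in WT lenses. The log2 fold change was 0.11 (standard error 0.05, 95% interval 0.01 to 0.20), or 7.7% on the log2(value + 1) scale, and it did not pass over all genes (limma, unadjusted p = 0.0244, adjusted p = 0.188). The difference rested partly on the second S100A4-/- library, and without that library the log2 fold change was 0.049. *Cryga* exons overlap those of *Gm28845*, as given above.

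*Crygs*, the gamma crystallin expressed in the fibers of the adult lens cortex, was lower in both S100A4-/- libraries. It had values of 2931352 and 3048419 in S100A4-/- lenses and of 3288869 and 3168601 in WT lenses. The log2 fold change was −0.11 (standard error 0.06, 95% interval −0.23 to 0.01) and did not pass with limma (adjusted p = 0.32), nor with DESeq2 (adjusted p = 0.141). It passed with edgeR's quasi-likelihood test on recovered reads (−0.107, adjusted p = 0.024). Quantile normalization, which keeps only the rank of a gene in its library, gave −0.084. However, *Crygs* ranked eighth in both S100A4-/- libraries and so had no spread there. Its ranks in the WT libraries were 5 and 7, and *Gm42418* (8 and 4) and *Crygb* (6 in both) stood above it only in the second. Its low p by limma on these values is therefore not used. It kept its sign under all 16 alternatives, with log2 fold changes of −0.14 to −0.08. Relative to the sum of the 6 genes on chromosome 1, the log2 ratio of *Crygs* was −1.943 and −1.939 in S100A4-/- lenses and −1.817 and −1.863 in WT lenses. The groups did not overlap in this ratio, and the difference was −0.101 (exact permutation test, two-sided, p = 0.333, the smallest possible). The ratio is drawn from the *Crygs* values already given and is not separate support. *Crygs* shares no 50-base sequence with another gene, so its count did not lose reads to the other members.

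*Crygn* had values of 33014 and 36324 in S100A4-/- lenses and of 36417 and 35756 in WT lenses. The second S100A4-/- value lay between the WT values, so the groups overlapped, and the log2 fold change was −0.06 (standard error 0.04, 95% interval −0.15 to 0.03, limma adjusted p = 0.519). Without the first S100A4-/- library this log2 fold change was 0.010, and without the second it was −0.128. In all, the groups did not overlap in 4 of the 8 members, of which 1 was higher and 3 were lower in S100A4-/- lenses. Among all genes tested this was the case in 46.9% (23.7% higher and 23.2% lower).

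The family as a whole took about the same part of the library in both groups. Summed over the 8 members, the normalized value was 14231714 and 14769593 in S100A4-/- lenses and 14916692 and 14734542 in WT lenses. The ratio of the group means was 0.978 (exact permutation test, two-sided, p = 0.667), and the groups overlapped. Gamma crystallin reads made up 20.37% and 19.66% of the reads on genes in S100A4-/- lenses and 20.33% and 19.78% in WT lenses, with group means of 20.02% ± 0.50 and 20.05% ± 0.39 (SD, n = 2). The Wilson 95% intervals of these shares, which cover counting error only, reached no more than 0.01 percentage points from the share, so that depth did not limit the comparison. The libraries of a group differed more from each other than the group means did.

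**Figure D3:**
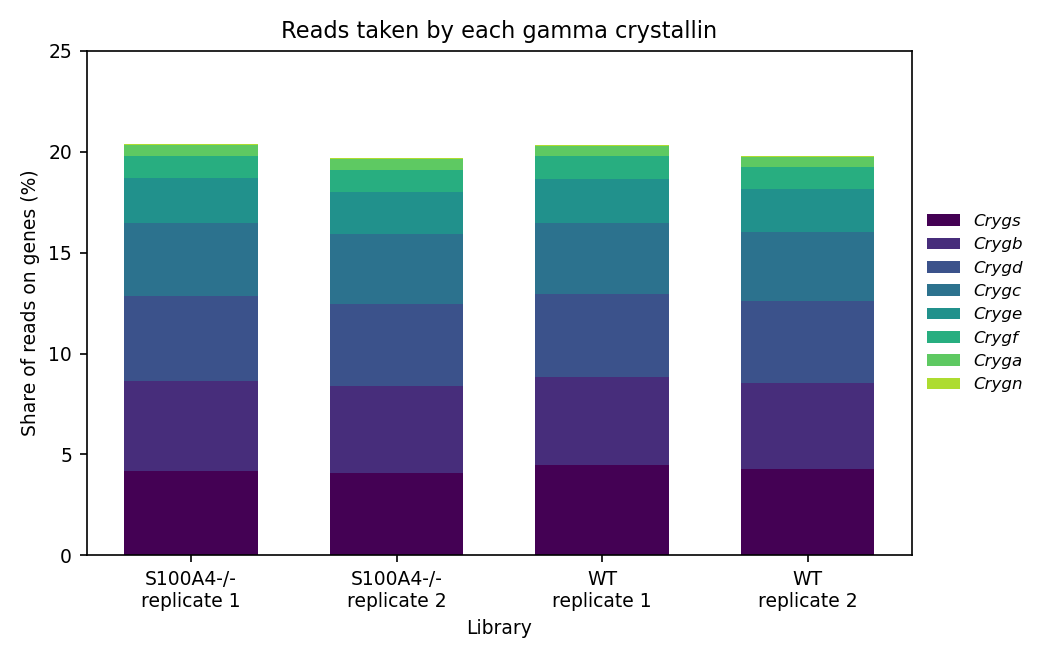
Share of the reads on genes (%) taken by each gamma crystallin, stacked, in each of the 4 libraries. The S100A4-/- stacks reach 20.37% and 19.66% and the WT stacks 20.33% and 19.78%, and the first replicate of each group is the higher.

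The non-coding RNA *Gm42418*, whose locus overlaps ribosomal RNA sequence, moved with this difference between replicates. It took 4.23% and 6.46% of the reads in S100A4-/- lenses and 3.87% and 5.31% in WT lenses. Without it, the gamma crystallin share was 21.27% and 21.02% in S100A4-/- lenses and 21.15% and 20.89% in WT lenses. The groups then overlapped, and the S100A4-/- mean was higher by 0.12 percentage points (exact permutation test, two-sided, p = 0.667, where 0.333 is the smallest possible). The composition of the family was also similar. Of the summed family value per kb of exon, *Crygb* held 26.9% in S100A4-/- and 26.5% in WT lenses, *Crygs* 18.4% and 19.4%, *Crygc* 17.5% and 17.2%, and *Crygd* 15.7% and 15.5%. *Cryga* held 2.8% and 2.6% and *Crygn* 0.2% in both.

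The alpha and beta crystallins, the other abundant crystallins of the lens, were measured in the same fit. None of the 8 genes (*Cryaa*, *Cryab*, *Cryba1*, *Cryba2*, *Cryba4*, *Crybb1*, *Crybb2* and *Crybb3*) passed an adjusted p of at most 0.05 with limma or had an unadjusted p under 0.05, and 0 passed with DESeq2 or edgeR. The limma shares over all genes tested were 6.96% and 17.7%. The median log2 fold change of the 8 genes was −0.05, from −0.10 (*Cryba2*) to 0.05 (*Crybb3*). The groups did not overlap in 3 of the 8, all lower in S100A4-/- lenses. Among all genes tested this was the case in 46.9% (23.2% lower). *Cryaa*, the most abundant gene of the lens, had values of 11948842 and 13289361 in S100A4-/- lenses and of 13062948 and 13333352 in WT lenses. These 8 genes took 45.86% and 45.90% of the reads in S100A4-/- lenses and 46.97% and 46.36% in WT lenses. The share was lower in both S100A4-/- libraries, by 0.79 percentage points between the means (exact permutation test, two-sided, p = 0.333, the smallest possible). Without *Gm42418* it was 47.89% and 49.08% against 48.87% and 48.96%, so that the groups overlapped and the means differed by 0.43 points (p = 1.000 by the same exact test). The summed normalized values of the 8 genes also overlapped, with 32046328 and 34477387 in S100A4-/- lenses and 34457920 and 34533465 in WT. The gamma crystallin part of all crystallin reads was 30.75% and 29.99% in S100A4-/- lenses and 30.21% and 29.91% in WT lenses, so that the groups overlapped.

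**Figure D4:**
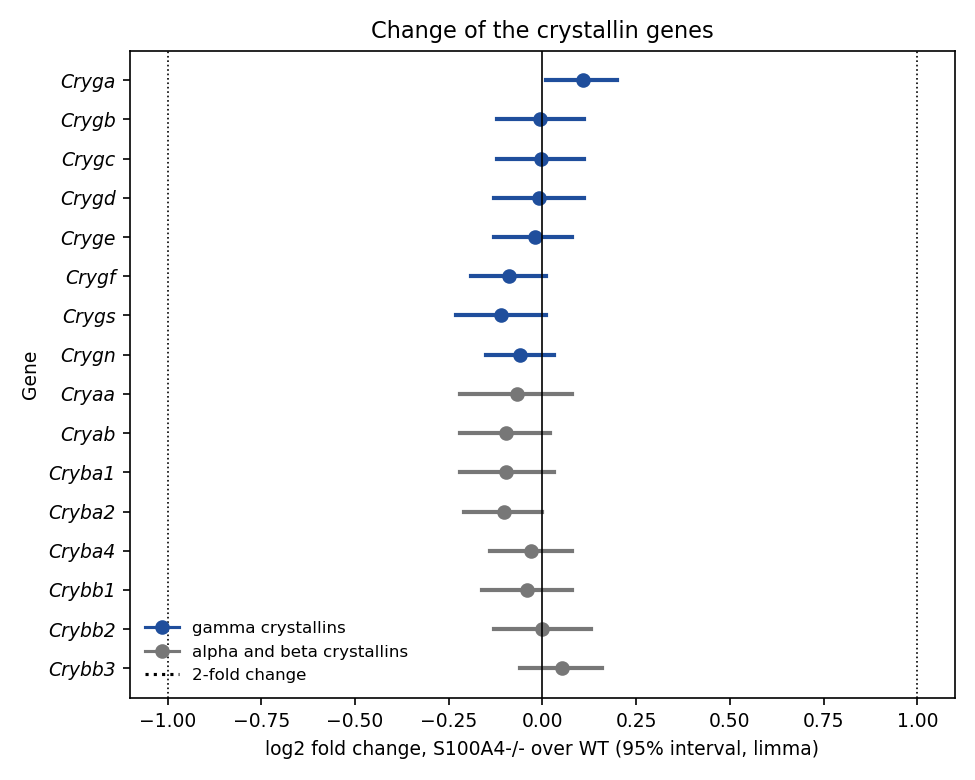
Log2 fold change of S100A4-/- over WT (points) with its 95% interval from limma (lines) for the 8 gamma (blue) and 8 alpha and beta crystallins (grey), with dotted lines at a 2-fold change. The gamma crystallin intervals lie between −0.23 and 0.20, well inside the dotted lines.

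Of 17 genes listed for the regulation of crystallins and of fiber differentiation, none passed an adjusted p of at most 0.05 with limma, 0 passed with DESeq2 or edgeR, and 1 had an unadjusted p under 0.05. Of all genes tested with limma, 6.96% passed and 17.7% had an unadjusted p under 0.05. With the replicate block 1 regulator passed. The median log2 fold change of the 17 genes was −0.04, from −0.12 (*Prox1*) to 0.11 (*Eya1*). *Maf*, a transcription factor needed for fiber cell elongation and crystallin expression, had values of 35899 and 34813 in S100A4-/- lenses and of 36773 and 36398 in WT lenses (log2 fold change −0.05, limma adjusted p = 0.577). *Sox1*, which acts on gamma crystallin promoters, had 7880 and 7782 against 7866 and 7641 (0.01, limma adjusted p = 0.917). *Prox1*, a homeobox factor of fiber differentiation, was lower in both S100A4-/- libraries, with 19000 and 18797 against 20307 and 20684, and did not pass (−0.12, limma adjusted p = 0.0861). *Hsf4*, a heat shock factor required in the lens after birth, had 14264 and 16015 against 14938 and 15211 (0.0039, limma adjusted p = 0.981). The most abundant gene of the list was *Tdrd7*, whose protein controls transcripts after transcription in lens fibers, at 120625 and 126036 against 127273 and 128550.

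The labelled tissue was checked against markers of lens fibers. All 12 listed fiber genes were found, and together they held 3.41% to 3.69% of the reads. Of these, 2 passed an adjusted p of at most 0.05 with limma, both lower in S100A4-/- lenses and neither by 2-fold. At this threshold 6.96% of all genes tested passed (1.33% lower). An unadjusted p under 0.05 was found for 5 of the 12 genes, beside 17.7% of all genes. The groups did not overlap in 9 of the 12, of which 8 were lower and 1 was higher in S100A4-/- lenses. Among all genes tested this was the case in 46.9% (23.2% lower). *Grifin*, a lens galectin-related protein, fell from 125413 and 121830 in WT to 103287 and 103497 in S100A4-/- lenses (log2 fold change −0.26, standard error 0.04, limma adjusted p = 1.24e-05). *Hspb1*, a small heat shock protein, had 23034 and 27053 in S100A4-/- and 28312 and 27792 in WT lenses (−0.17, limma adjusted p = 0.0254). Without limma's variance trend neither passed. The most abundant, *Bfsp1*, a beaded filament protein, had 666795 and 700675 against 707403 and 720617 and did not pass (−0.06, limma adjusted p = 0.538). The summed value of the list was 0.937 times that of WT, beside 0.978 for the gamma crystallins.

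Some markers of other cells of the eye were higher in S100A4-/- lenses, in numbers that differed between the lists. All 10 listed rod photoreceptor genes passed with at least a 2-fold rise (limma), with summed values of 11186 and 10910 in S100A4-/- lenses and 2453 and 2542 in WT lenses, and the most abundant was the rod transducin gene *Gnat1*. Such a rise passed in 3.65% of all genes tested. The study had already reported all 10 as higher in these same libraries, so this outcome was known in advance. The same holds for *Best2* and *Otx1* of the ciliary body list. Without the variance trend, 8 rod photoreceptor, 3 ciliary body and 3 pigment cell genes passed an adjusted p of at most 0.05. *Gnat1* had 3339 and 3327 against 736 and 782 (log2 fold change 2.13), and the rod genes *Rp1*, *Pdc*, *Rcvrn* and *Rbp3* had log2 fold changes of 2.50, 2.45, 2.39 and 2.34. Of the ciliary body list 5 of 6 passed upward, with 1899 and 1805 against 740 and 867 in sum. Its most abundant gene, *Msx1*, was not among them (580 and 525 against 480 and 541), while *Otx1*, *Zic1* and *Best2* had log2 fold changes of 2.36, 2.20 and 2.17, and *Tfap2b* had values of 48.8 and 41.6 against 2.09 and 10.9. Of 6 pigment cell genes 5 had a row and passed upward (1177 and 1230 against 174 and 261 in sum), of which *Mlana* met the filter on low values only through the S100A4-/- libraries. *Dct*, an enzyme of melanin synthesis, was the most abundant, with a log2 fold change of 3.92, *Tyr* and *Pmel* had 2.55 and 2.43, and *Mlana* had values of 24.0 and 26.4 against 1.04 and 2.19, or at most 2 reads in a WT library. Of 6 macrophage genes 5 had a row and 3 passed upward with limma (240 and 213 against 83.5 and 72.3 in sum), but 1 passed with DESeq2 and 0 without the variance trend. *Cd68*, which did not pass, met the filter only through the S100A4-/- libraries. The log2 fold changes were 1.51 for *C1qa* and 1.22 for *Csf1r*, the most abundant, and *C1qb* had values of 41.1 and 59.8 against 19.8 and 2.19, the last of them 2 reads. Of the blood vessel list 2 of 5 passed upward (399 and 404 against 148 and 185 in sum), namely *Kdr* (2.68) and the most abundant, *Flt1* (1.84). *Kdr* met the filter only through the S100A4-/- libraries (74.5 and 60.8 against 9.4 and 9.85). *Tek* was lower in both S100A4-/- libraries (46.2 and 44.6 against 49.1 and 59.1), and *Pecam1* (23.1 and 24.3 against 18.8 and 24.1) and *Cdh5* (14.6 and 35.5 against 9.4 and 20.8) overlapped between the groups. These 3 genes did not pass and were named after their values were seen. No gene of these lists with a row was at 0 in any library, and *Slc45a2* (pigment cell) and *Aif1* (macrophage) had no row. Of 9 lens epithelium genes, of which some, such as *Foxe3* and *Pax6*, are also in the list of regulators, 1 passed, *Slc38a3*, an amino acid transporter, with 1532 and 1625 against 1372 and 1323 (log2 fold change 0.23, limma adjusted p = 0.0261). At this threshold, without a 2-fold change, 6.96% of all genes tested passed. *Slc38a3* did not pass with DESeq2, without the variance trend or with equal totals of the genes that are not crystallins. Of the others, which did not pass, *Gja1* and *Pax6* were higher in both S100A4-/- libraries (log2 fold changes 0.15 and 0.07, limma adjusted p = 0.0688 and 0.536), *Cdh1* and *Pdgfra* were lower in both (−0.16 and −0.14, limma adjusted p = 0.104 and 0.108), and the rest overlapped. The list summed to 53599 and 51352 against 53743 and 53221, with *Col4a3* the most abundant. The rod genes held at most 0.016% of the reads of a library and the gamma crystallins at least 19.66%. The part of other cell types in the small differences among the gamma crystallins was not tested.

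**Figure D5:**
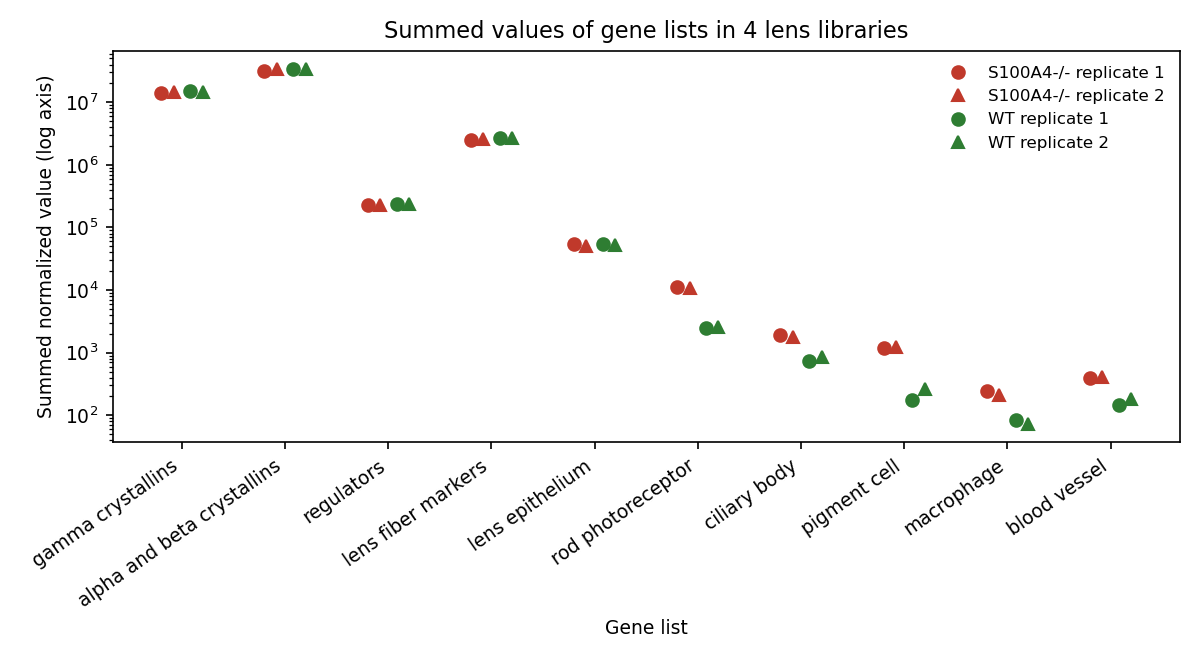
Summed normalized values (log axis) of the gamma crystallins and of 9 gene lists in each S100A4-/- (red) and WT (green) library. The gamma crystallin points coincide at this scale, whereas the rod photoreceptor sums are 11186 and 10910 in S100A4-/- and 2453 and 2542 in WT lenses.

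The genes whose pattern over the 4 libraries was most like that of the summed family were sought among the 3595 other genes whose mean value reached 1000. Likeness was the Euclidean distance between centred log2(value + 1) profiles, and with 4 libraries it is a description only. The 5 nearest were *Gipc1* (distance 0.0075), *Thrap3* (0.0076), *Npepl1* (0.0085), *Ipo7* (0.0115) and *Rps19* (0.0116), beside a median distance of 0.107. *Gipc1* had 6678 and 6899 in S100A4-/- lenses and 6953 and 6903 in WT lenses. As in the family sum, the first S100A4-/- library was the lowest in all 5 genes, and their log2 fold changes were between −0.038 and −0.030.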

How the data were processed

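Lens mRNA of 1-month-old mice was sequenced in 4 stranded libraries with single-end reads of 50 bases. Per the study's methods, the authors used Trim Galore for trimming, STAR for alignment to GRCm38v73 and HTSeq for counting, where only reads of a single locus entered (tool versions, and the strand setting of the counting, are not given in the sources used here). Genes below 10 reads in every library were dropped, and no gene in the table fell below this. The signal values the authors deposited are DESeq2-scaled counts (reads over the size factor), not scaled by length. When divided by the value of 1 read, 100.0% of them came out whole in every library (within 0.01 reads), which gave back the counts. Identifiers matched GENCODE M21 symbols for 14782 of 14924 genes.

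Groups were compared with limma (lmFit, eBayes with a variance trend) on log2(value + 1) over the 14780 genes that reached a value of 10 in any library, and p-values were adjusted by Benjamini-Hochberg over all of them. Fold changes are on this scale. Since the members were named by symbol, no values chose them, but the members, the lists and the tests were chosen with earlier results of these data known. Besides all members, the genes named are *S100a4*, from each list the most abundant and up to 4 past the threshold by size of change, and the 5 most like the family. Regulators named beyond this were chosen for their known roles. *Gm42418*, the genes at the ends of a list's range (*Cryba2*, *Crybb3*, *Prox1*, *Eya1*), *Cd68*, *Tek*, *Pecam1*, *Cdh5*, *Cdh1*, *Pdgfra*, *Gja1*, *Foxe3*, *Pax6* and the genes without a row fall outside this rule and were named after their values were seen. The motif TATATA, the principal transcripts, the assignable read starts and the shares without *Gm42418* were chosen after seeing the data. The ratios between members were not among the tests set beforehand. The alternatives were other pseudocounts, filters, scalings, DESeq2 and edgeR on recovered reads, no variance trend, a replicate block and each library left out. Where a library was left out, the lone library of its group was assumed to vary like the other group. The limma, edgeR and DESeq2 fits were tested on simulated data, but the outcome is not given here and no result rests on it. The replicate libraries differed by more than counting noise (chi-square per gene 35.3 in S100A4-/- and 15.2 in WT on average, with medians of 2.01 and 1.09). The fits ran in R 4.3.3 (DESeq2 1.42.0, edgeR 4.0.16, limma 3.58.1) and the rest in Python 3.11.15 (Biopython 1.88, matplotlib 3.10.9, scipy 1.17.1, pandas 2.3.3, numpy 2.4.6).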

Additional observations from a re-analysis of the deposited data

How the results depend on the processing

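Over 8 members and 16 alternatives, 115 of 128 log2 fold changes kept their direction and their side of the threshold. The 11 that changed sign, all of genes that did not pass, were *Crygb* (0.024), *Crygc* (0.025), *Crygd* (0.019) and *Cryge* (0.008) with equal totals, *Crygb* (0.138) and *Crygd* (0.021) with quantile normalization, and, with a library left out, *Crygb* (0.025), *Crygc* (0.019), *Crygd* (0.019) and *Crygn* (0.010) without the first S100A4-/- library and *Crygc* (0.006) without the first WT library. Over the 4 fits with a library left out, the log2 fold changes lay between −0.036 and 0.025 for *Crygb*, −0.028 and 0.019 for *Crygc*, −0.040 and 0.019 for *Crygd*, −0.128 and 0.010 for *Crygn*, −0.031 and −0.011 for *Cryge*, −0.12 and −0.06 for *Crygf*, −0.14 and −0.08 for *Crygs* and 0.05 and 0.17 for *Cryga*. No gamma crystallin passed 2-fold in any setting. At an adjusted p of at most 0.05 alone, 1 passed with edgeR and 1 with quantile normalization, *Crygs* both times, though in the latter its rank was the same in both S100A4-/- libraries, which leaves no spread there. Quantile normalization gives genes of equal rank in every library the same value, and it set *Cryga*, *Crygc*, *Cryge* and *Crygf* to a log2 fold change of 0.000, which is counted above as no change of direction. The log2 ratio of the summed family was −0.032 and moved to −0.003 with equal totals and to 0.019 with quantile normalization, and it lay between −0.059 (without the second S100A4-/- library) and −0.005 (without the first) with a library left out.

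Of all genes, 539 were higher and 11 lower past 2-fold. The count of higher genes was 281 with a mean value of at least 50 and 174 without the trend, that of lower genes 6 with a mean of at least 50, 23 with quantile normalization, 7 without the trend and 6 with DESeq2. With a library left out the counts lay between 168 and 546 (higher) and between 4 and 13 (lower). Of the fiber markers 0 passed without the trend, 4 with the replicate block, 1 with quantile normalization and 1 with equal totals of the genes that are not crystallins, and of the regulators 1 passed with the replicate block. Of the epithelium genes 4 passed with the replicate block and 2 with quantile normalization, and without the trend 8 of the 10 rod photoreceptor, 3 ciliary body and 3 pigment cell genes passed. Nothing in the sources used here ties same-numbered pools to each other, and deviations of same-numbered libraries correlated at 0.056 over 11340 genes, so they were not taken as pairs. The replicate block changed no call of a gamma crystallin (0 passed). Of the 8 ranks per exonic length, 5 held on the longest or the principal transcripts, 4 when not divided by length and 3 per assignable start. A count of assignable starts over the genome was not run, because no genome sequence was used here. Depth did not limit the members, each with at least 32657 reads in a library. The reads lost to near-identical copies limit comparisons of level between members, as do the gene starts on which the annotations differ.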
